A study of Mus musculus with 6 samples.

Results

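Immediate early response genes were followed in mouse liver during 4 months of alcohol feeding. The 10 genes examined were Fos, Jun, Junb, Egr1, Ier2, Ier3, Dusp1, Myc, Klf6 and Btg2, taken as every probe that carries one of these names on all 6 arrays. They are covered by 17 of the 41174 probes and 10 of the 27962 gene names of the array. Liver RNA came from male 129/Sv mice that entered treatment at 6 to 8 weeks of age. The alcohol group drank a liquid diet with 4% ethanol, and the control group received an isocaloric liquid diet with maltose dextran in its place. Both groups were first accustomed to the control liquid diet, and feeding then lasted 1, 2 or 4 months. Equal amounts of RNA from 6 mice were combined into 1 pool per group and time, so 3 alcohol pools and 3 control pools were measured and the spread between mice was not. Each pair of pools was hybridized to 2 two-color arrays with the dyes exchanged. Livers were frozen after blood had been drawn from animals killed in CO2, and the interval between death and freezing is not given in the sources used here.

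Immediate early genes are transcribed within minutes of a stimulus such as a growth factor, a stress signal or a hormone, without need of new protein synthesis, and most of their mRNAs are short-lived. Signals reach them through MAP kinases, the cofactors of serum response factor and the CREB and ATF family. Several encode transcription factors that pass the signal on, and others, such as Dusp1, encode proteins that end it. In liver they are known for their rise in the first hours after partial hepatectomy, injury or isolation of the tissue.

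The ratio of alcohol over control of each array is given on the log2 scale, so that 1 is a 2-fold higher and -1 a 2-fold lower signal in the alcohol pool, and a monthly value is the mean of the 2 arrays ± their SD (n = 2 arrays of the same pools). That SD is technical. A probe was called raised or lowered at a month where the mean reached 2-fold and both arrays had its sign, and no p-value was computed within a month because there was 1 pool a group. "Well above background" is the flag of the scanning software, required of more than 50% of the spots of a probe. Of the 17 probes, 15 probes of 8 genes met it in at least 1 pool on at least 1 array and were tested with 37922 probes in all, and 12 probes of 7 genes met it in both pools on all 6 arrays. No member probe was saturated. The 2 arrays of 1 month lay on 1 slide and the 4 arrays of 2 and 4 months on another, so slide and the step after 1 month cannot be told apart. Over 27898 probes well above background everywhere, the 2 arrays of a month, both turned to alcohol over control, correlated at 0.16, -0.30 and -0.32 at 1, 2 and 4 months, and the dye part, which is the part of the ratio that turned over with the dyes, had an SD of 0.14, 0.25 and 0.31. All 9 hepatocyte markers on the array were well above background in every pool.

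At 1 month, 0 of the 15 tested probes were raised and 0 were lowered, where 0.142% and 0.0949% of all tested probes were. At 2 months 1 of 15 (6.67%) was raised, the Jun probe, beside 0.237% of all tested probes. Jun met the background rule for testing only through the alcohol pools of 2 and 4 months, where it was high. Its place in these counts is therefore set in part by the filter and is no independent result. Lowered at 2 months were 2 of 15 (13.3%), both of them Myc probes, beside 0.179% of all. At 4 months 2 of 15 (13.3%) were raised, those of Jun and Dusp1, beside 0.432% of all, and 0 were lowered, beside 0.324%. Jun entered this count too through its alcohol pool, with a dim control pool. That leaves Dusp1 as the only raised probe of these genes that passed the background flag in every channel. The monthly means of the other probes stayed inside 2-fold. The median over the 15 probes was -0.06, 0.00 and 0.10 at the 3 months, and that over all tested probes was 0.00, 0.01 and -0.01. These genes therefore held a few large ratios and no common shift. Over the whole liver, fewer cells of a type and less RNA per cell cannot be told apart.

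**Figure D1:**
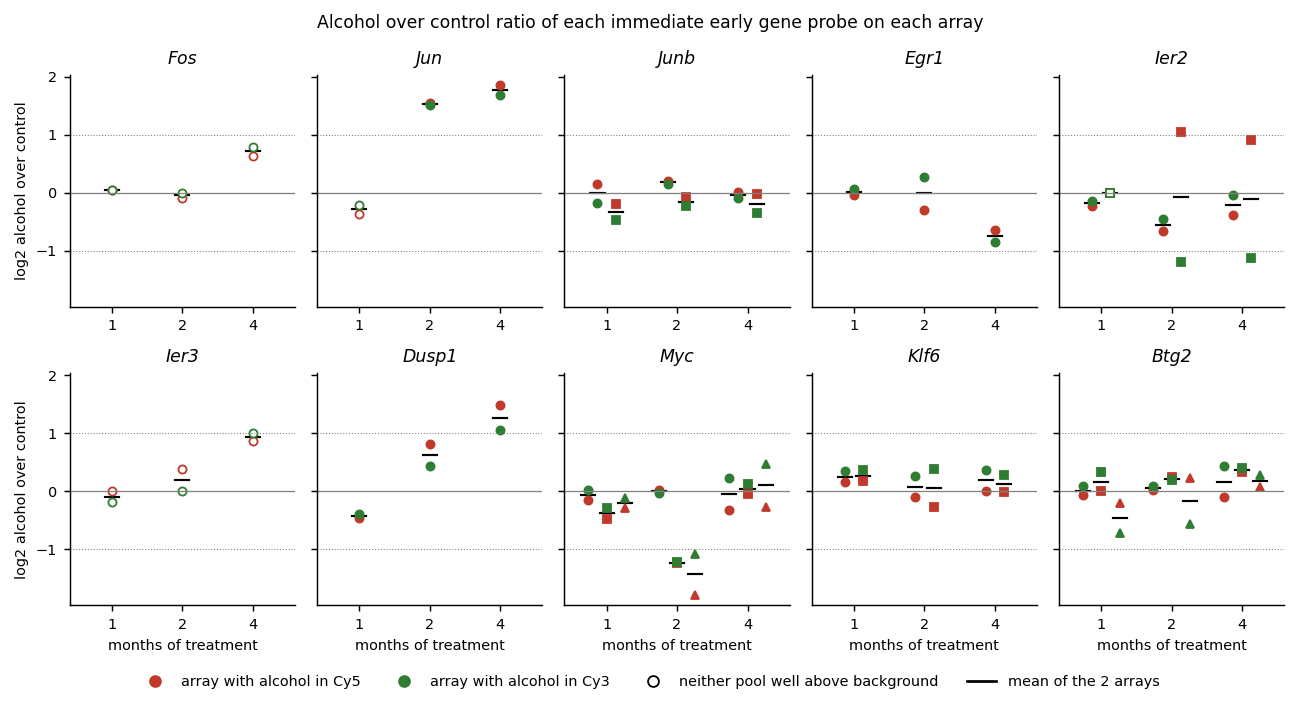
Log2 ratio of alcohol over control (vertical axis) of each probe of the 10 genes against months of treatment (horizontal axis). Each symbol is 1 array, red with alcohol in Cy5 and green with alcohol in Cy3, each probe of a gene has its own symbol shape, black bars are means of 2 arrays, open symbols have neither pool well above background, and dotted lines mark 2-fold. Jun at 2 and 4 months, Dusp1 at 4 months and 2 of 3 Myc probes at 2 months lie past 2-fold on the mean.

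Jun, the DNA-binding partner of Fos in the AP-1 dimer, was raised at 2 and 4 months, from a control pool that was not well above background. Its probe A_51_P325914 is printed 10 times on the array. At 1 month the 2 arrays gave -0.37 and -0.21, with neither pool well above background. At 2 months they gave 1.54 and 1.5, a mean of 1.52 ± 0.03. At 4 months they gave 1.85 and 1.69, a mean of 1.77 ± 0.12. All 4 arrays of the later months were therefore high, and both arrays of 1 month were below 0. The single spots ran from 0.73 to 2.56 and from 0.92 to 2.19 on the arrays of 2 months and from 1.31 to 2.31 and from 1.34 to 2.12 on those of 4 months.

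The size of the Jun difference has only an approximate lower limit, and its ratio has no exact rank among genes. The alcohol pool was well above background at 2 and 4 months, with at least 9 of 10 spots passing on each array, but the control pool was not, with at most 2 of 10 spots passing. On each array the alcohol signal was set against the lowest signal well above background, or the control's own signal where that was higher. The alcohol pool was then 1.39-fold higher at 2 months and 2.01-fold higher at 4 months. The level of a control pool that fails the flag is not known, so these values are an approximate lower limit. This limit uses the separate channels after normexp background correction with an offset of 50, normalized by loess and Aquantile. Dye bias can enter it. Under the same background correction (normexp, which adds an offset of 50, followed by loess) the ratio was 0.61 at 2 months and 1.06 at 4 months. The call at 2 months was thus lost and that at 4 months kept. This ratio and the limit come from the same corrected signals and are not separate checks. The direction was the same in both months under both corrections.

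Fos, the partner of Jun in the classical AP-1 dimer, could not be followed. Its probe A_52_P262219, also printed 10 times, passed the background flag in 0 of the 12 channels. The ratios were 0.04 and 0.05 at 1 month and -0.09 and 0.00 at 2 months. At 4 months they were 0.64 and 0.79, where 1 and 2 of the 10 spots passed the background flag in the alcohol pool and 0 passed in the control pool. These values are no fold change, because neither pool had a measured level.

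Junb, an AP-1 subunit related to Jun, was measured by 2 probes, both well above background on all arrays. A_51_P159194 gave monthly means of -0.01 ± 0.23, 0.18 ± 0.03 and -0.04 ± 0.07 at 1, 2 and 4 months. A_51_P159201 gave -0.34 ± 0.19, -0.16 ± 0.11 and -0.19 ± 0.24 and was below 0 on all 6 arrays, from -0.48 to -0.03. The 2 probes thus differed in sign at 2 months, and neither came near 2-fold. Neither was called at 2 or 4 months, when Jun was.

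Egr1 encodes a zinc finger factor that growth factors and stress induce through serum response factor. Its probe A_51_P367866 passed the background flag on every array, in alcohol as in control. The arrays gave -0.04 and 0.05 at 1 month and -0.30 and 0.27 at 2 months, so the ratio was near 0 at 1 month and took the sign of the dye at 2 months. At 4 months both arrays were low, at -0.65 and -0.86, with a mean of -0.76 ± 0.15, which is 1.69-fold lower and inside 2-fold. Of all tested probes, 0.767% had a lower ratio at that time. Within the slide shared by 2 and 4 months, the level of Egr1 (log2 signal minus the 75th percentile of its channel) stood 1.22 higher at 4 than at 2 months in the control pool and 0.48 higher in the alcohol pool. After loess and Aquantile normalization these differences in level were 0.87 and 0.27.

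Myc, the transcription factor that drives growth and ribosome production, was the only one of the 10 genes with a lowered probe, and its 3 probes did not give the same value. For A_51_P102096, printed 10 times, the arrays of 1 month read -0.48 and -0.28, those of 2 months -1.24 and -1.22, and those of 4 months -0.05 and 0.12. Its mean at 2 months was -1.23 ± 0.01, or 2.35-fold lower in the alcohol pool. Every one of its 20 spot ratios at that time lay between -1.43 and -1.07. For A_52_P108346 the readings were -0.28 and -0.12, then -1.79 and -1.08, then -0.27 and 0.47. The mean of this probe at 2 months was -1.43 ± 0.50, or 2.70-fold lower. Both probes passed the background flag throughout, and 28 and 10 of all tested probes had lower ratios at 2 months. The third probe, A_52_P278549, which has the highest mean signal of the 3, gave means of -0.06 ± 0.12, 0.00 ± 0.04 and -0.05 ± 0.40. It showed no difference at 2 months, where the other two were low on every array. Which transcripts each probe detects was not tested.

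The difference of Myc at 2 months was seen in the level of the control pool. From 2 to 4 months the control level of A_51_P102096 was lower by 1.05 and that of A_52_P108346 by 1.11, while the alcohol levels were higher by 0.23 and 0.42. After loess and Aquantile normalization the control levels were lower by 0.98 and 0.95, and the alcohol levels were higher by 0.26 and 0.53. The control pool of 2 months therefore stood above the other 3 pools of that slide for both probes, under both scalings. For A_52_P278549 the levels of both pools were higher at 4 months, by 0.36 in control and 0.31 in alcohol. With 1 pool a group, a property of the control pool of 2 months and an effect of alcohol at that time cannot be told apart.

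**Figure D2:**
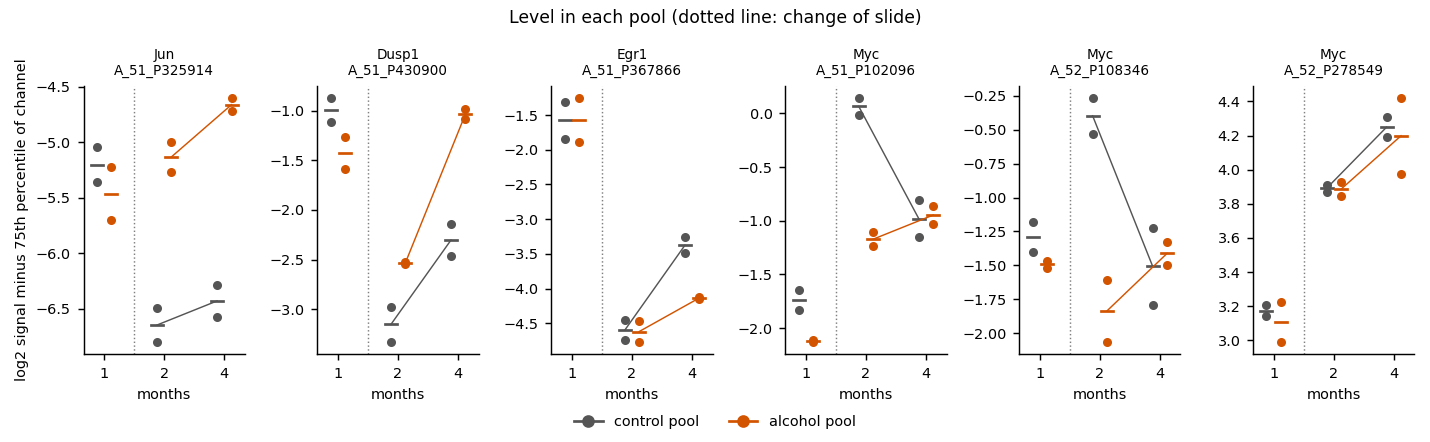
Level of Jun, Dusp1, Egr1 and the 3 Myc probes in each pool (vertical axes, log2 processed signal minus the 75th percentile of the channel, own range for each panel) at 1, 2 and 4 months (horizontal axes). Points are the 2 arrays of a pool, bars their mean, gray control and orange alcohol, and lines join means within the slide of 2 and 4 months. The control pool of 2 months is the highest of the 4 pools of its slide for 2 Myc probes. The level of Dusp1 is higher at 4 than at 2 months in both pools, by 1.5 in alcohol and 0.85 in control.

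Klf6, a zinc finger factor of the Krüppel family that injury induces in liver cells, was measured by 2 probes that gave like values. A_51_P451346 gave 0.25 ± 0.13, 0.08 ± 0.26 and 0.19 ± 0.26 at 1, 2 and 4 months. A_51_P503162 gave 0.27 ± 0.14, 0.06 ± 0.46 and 0.13 ± 0.20. Both arrays of 1 month were above 0 for both probes, from 0.16 to 0.36. At 2 months the arrays of both probes took opposite signs with the dye.

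Ier2 and Ier3 encode small proteins of the immediate early class, Ier3 being known for its part in cell survival. The Ier2 probe A_51_P481325 was below 0 on all 6 arrays, with -0.23 and -0.15 after 1 month, -0.66 and -0.45 after 2, and -0.39 and -0.04 after 4. Its means were -0.19 ± 0.06, -0.56 ± 0.15 and -0.22 ± 0.25, with 1.67% of all tested probes lower at 2 months. The second Ier2 probe, A_52_P554555, followed the dye. With alcohol in Cy5 it read 1.04 at 2 months and 0.90 at 4 months, and with alcohol in Cy3 it read -1.21 and -1.13, so that either array alone would have read as about 2-fold in opposite directions, and the means were -0.08 and -0.12. The Ier3 probe A_51_P286488 passed the background flag in 0 of the 12 channels, and its ratios of 0.86 and 1.01 at 4 months give no fold change.

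Dusp1, the phosphatase that switches off p38 and JNK kinases and is also a textbook glucocorticoid-induced gene, was higher in ratio at each later month. Its probe A_51_P430900 passed the background flag in every channel. Arrays of 1 month read -0.47 and -0.39, arrays of 2 months 0.81 and 0.44, and arrays of 4 months 1.48 and 1.06. The 2 arrays of each month lay apart from those of the other months. The means were -0.43 ± 0.05, 0.63 ± 0.26 and 1.27 ± 0.30, the last being 2.41-fold. Of all tested probes, 1.64% had a lower ratio at 1 month and 0.192% a higher one at 4 months. From 2 to 4 months the level of Dusp1 was higher in both pools, by 1.5 in alcohol and by 0.85 in control, and after loess and Aquantile normalization by 1.34 and 0.66. With normexp and loess the ratios were -0.37, 0.53 and 1.21, and the call at 4 months stayed.

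Btg2, an antiproliferative gene that p53 and growth factors induce, was measured by 3 probes. A_52_P925197 gave 0.00 ± 0.11, 0.06 ± 0.05 and 0.16 ± 0.38 at the 3 months. A_52_P35217 gave 0.17 ± 0.22, 0.21 ± 0.04 and 0.36 ± 0.05 and was above 0 on all 6 arrays, from 0.01 to 0.40. A_52_P31543 gave -0.46 ± 0.36, -0.17 ± 0.55 and 0.17 ± 0.15. At 1 month its alcohol pool was not well above background. None of the 3 reached 2-fold.

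**Figure D3:**
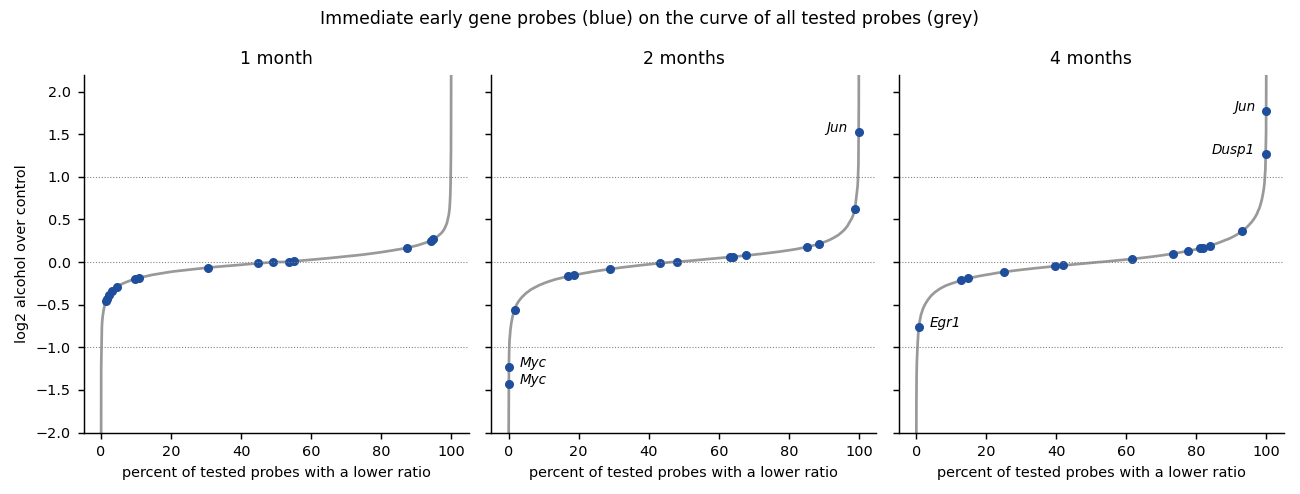
Log2 ratio of alcohol over control (vertical axis) against the percent of the 37922 tested probes with a lower ratio (horizontal axis), at 1, 2 and 4 months. Gray curves are all tested probes, blue points the 15 tested member probes, and dotted lines mark 0 and 2-fold. Most members lie in the flat middle of the curve, with Jun, whose control pool was not well above background, at the upper end at 2 and 4 months, Dusp1 at the upper end at 4 months and 2 Myc probes at the lower end at 2 months.

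With the 3 months taken as replicates, limma called 0 of the 15 probes for an effect of alcohol over the months, and 0% of all 37922 probes, at an adjusted p of 0.05. At an unadjusted p below 0.05 it found 4 of the 15 probes and 7.98% of all. These 4 were A_51_P481325 of Ier2 at -0.32 (SE 0.10), A_51_P159201 of Junb at -0.23 (SE 0.07), A_52_P35217 of Btg2 at 0.25 (SE 0.07) and A_51_P451346 of Klf6 at 0.17 (SE 0.07), each with a limma adjusted p of 0.620. Jun, at 1.00 (SE 0.42), had a limma adjusted p of 0.623. The Dusp1 mean was 0.49 (SE 0.33, limma adjusted p 0.717).

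For the slope of the ratio on the log2 of the month, limma also called 0 of 15 and 0% of all probes. The slide changed after 1 month too, so that step within a slope cannot be told apart from slide. At an unadjusted p below 0.05 there were 4 of the 15 and 7.42% of all. Dusp1 had a slope of 0.85 per doubling of time (SE 0.10, limma adjusted p = 0.616). Jun had 1.03 (SE 0.23, limma adjusted p = 0.627), which includes the ratio of 1 month from pools below background. The other two were A_52_P31543 of Btg2 at 0.32 (SE 0.08, limma adjusted p = 0.627, and 0.16 with normexp and loess), whose alcohol pool was dim at 1 month, and Egr1 at -0.38 (SE 0.13, limma adjusted p = 0.658). On the normexp and loess values the slopes of Dusp1 (0.79, limma adjusted p = 0.033) and Jun (0.60, limma adjusted p = 0.049) passed the threshold, among 50 probes called there.

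Jun and Dusp1, the pair raised at 4 months, have entries in the RefSeq promoter table, as have 5 of the others, and the 250 bases before their starts are shown because CREB and ATF octamers lie in them. Positions are those of GRCm38.p6, on the minus strand for Jun, Dusp1 and Btg2 and the plus strand for Klf6, and each sequence reads 5′ to 3′ toward the start. Capitals mark the octamers TGACGTCA or TGACATCA and the E-box CACGTG. Btg2 and Klf6 are added as the other two genes with such an octamer, whose ratios stayed inside 2-fold. The 4 regions are chr4:95052223-95052472 for Jun, chr17:26508473-26508722 for Dusp1, chr1:134079156-134079405 for Btg2 and chr13:5861239-5861488 for Klf6.
Jun: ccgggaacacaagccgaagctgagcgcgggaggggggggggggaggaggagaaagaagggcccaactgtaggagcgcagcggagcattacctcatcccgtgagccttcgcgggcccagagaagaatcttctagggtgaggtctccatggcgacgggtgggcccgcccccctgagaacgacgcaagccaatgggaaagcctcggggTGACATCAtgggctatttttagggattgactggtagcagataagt
Dusp1: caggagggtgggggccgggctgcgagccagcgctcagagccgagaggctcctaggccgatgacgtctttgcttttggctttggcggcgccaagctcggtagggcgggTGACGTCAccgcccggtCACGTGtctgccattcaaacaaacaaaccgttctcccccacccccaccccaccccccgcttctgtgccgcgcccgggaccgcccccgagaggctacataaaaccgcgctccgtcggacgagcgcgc
Btg2: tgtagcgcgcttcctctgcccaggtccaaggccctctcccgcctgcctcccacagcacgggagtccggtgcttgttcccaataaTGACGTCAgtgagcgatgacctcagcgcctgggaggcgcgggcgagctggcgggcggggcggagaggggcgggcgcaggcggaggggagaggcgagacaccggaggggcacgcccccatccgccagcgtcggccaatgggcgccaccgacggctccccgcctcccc
Klf6: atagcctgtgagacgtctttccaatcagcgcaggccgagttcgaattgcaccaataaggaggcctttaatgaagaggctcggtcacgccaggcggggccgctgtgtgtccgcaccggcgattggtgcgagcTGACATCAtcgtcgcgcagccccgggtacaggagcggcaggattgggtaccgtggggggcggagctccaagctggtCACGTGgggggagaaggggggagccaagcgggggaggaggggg

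Motifs were sought on both strands in the whole windows, from 250 bases before to 50 bases after the start, and none of the spellings contains another. The cyclic AMP response element TGACGTCA was found in 2 of the 7 members with a window, Dusp1 (143 bases before the start) and Btg2 (166 bases before), and in 1.79% of the 32851 windows of the table. The variant TGACATCA was found in Jun (45 bases before the start) and Klf6 (119 bases before), and in 3.62% of all windows. CACGTG was found in Dusp1 and Klf6 and in 7.15% of all. TATAAA was found in Fos, 33 bases before the start, and in Junb at the start itself, and in 13.6% of all. The AP-1 site TGACTCA, the EGR sites GCGTGGGCG and GCGGGGGCG, the ETS site CCGGAAGT and the CArG box of serum response factor were in 0 of the 7 and in 5.20%, 3.47%, 3.89% and 1.63% of all windows. Sites farther than 250 bases before the start were not searched, nor were the promoters of Ier2, Myc and Egr1. An absence from these windows therefore does not mean that a gene lacks the site. An octamer was present both in the raised genes and in Btg2 and Klf6, so its letters did not separate them.

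Related genes were examined by list, with 1 probe a gene and the same 2-fold rule. The 12 other AP-1 partners tested (FOS, JUN, ATF and MAF relatives) had 0 called at any month, with medians of 0.04 at each. The 8 EGR and NR4A factors, 6 IER, BTG and TOB relatives, 9 KLF relatives and 10 genes of the MYC network also had 0 called. At these list sizes a count of 0 is near the share of all tested probes, which was at most 0.432% in either direction, and is no result about these genes. Of 9 dual-specificity phosphatases other than Dusp1, 1 was raised at 4 months, Dusp8 at 1.16 ± 0.32, with its control pool not well above background. The 24 genes upstream (serum response factor, its cofactors and MAP kinases) had 0 called, which is also near the share of all tested probes.

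Among 36 other early-response genes tested, 3 were raised at 2 months, beside 0.237% of all tested probes, and 7 were raised and 1 lowered at 4 months, beside 0.432% and 0.324%. The list was chosen with earlier results of these data known. It holds Gadd45b and Rgs1, which the study listed among genes of growing induction on these arrays. The counts are therefore no independent result about early-response genes. Gadd45b, a stress and growth arrest gene, was at 0.20, 1.51 and 2.27 at 1, 2 and 4 months. Rgs1, a regulator of G protein signaling in immune cells, was at 0.29 ± 0.56, 1.01 ± 1.02 and 2.14 ± 0.32, its arrays of 2 months reading 0.29 and 1.74, with both pools dim at 1 month and the control pool passing the background flag on 1 array at 2 months and on 0 arrays at 4 months. Id1, an inhibitor of DNA binding that growth signals induce, was at 0.74, 0.83 and 1.32, with both pools dim at 1 month and the control pool passing the background flag on 1 of 2 arrays at 2 and at 4 months. The others were chosen for mention after their values were seen. Raised at 2 months was Ccn2 (Ctgf on the array), a matrix protein gene, at 1.11 ± 0.33, and raised at 4 months were Plk3, Sgk1, Gadd45g and Cebpd, at 1.17, 1.23, 1.04 and 1.04. Plk2 was lowered at 4 months, at -1.14 ± 0.26. The median of the list was 0.00, 0.09 and 0.07 at the 3 months.

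Target genes of the factors were examined in the same way, beside the same shares of all tested probes. The 15 AP-1 target genes had 0 called at any month and medians of 0.00, 0.07 and 0.06. The 15 MYC target genes had 0 called and medians of 0.03, -0.03 and -0.01. At these list sizes a count of 0 is near those shares and is no result about the targets. Of 13 p53 target genes 1 was raised, Cdkn1a, the cell cycle inhibitor p21, at -0.13, 1.30 and 0.39. The 11 heat shock genes had 0 called, again near those shares, and medians of -0.07, -0.19 and 0.02 at 1, 2 and 4 months. Of 15 circadian clock genes 1 was lowered, Dbp, at -1.0 ± 0.11 at 2 months.

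**Figure D4:**
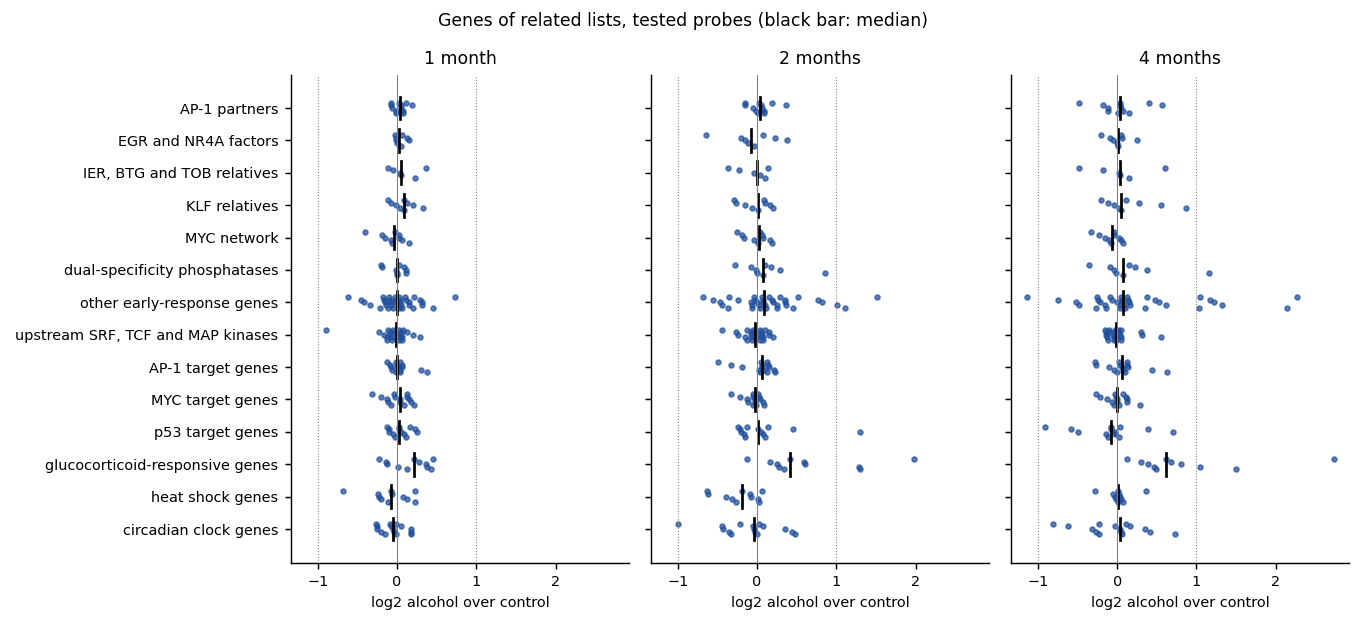
Log2 ratio of alcohol over control (horizontal axis) of each tested gene of 14 related lists (rows) at 1, 2 and 4 months, with 1 probe a gene as a blue point, the list median as a black bar and dotted lines at 2-fold. Medians lie near 0 for most lists, while glucocorticoid-responsive genes reach a median of 0.62 at 4 months.

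Of the 14 related lists, glucocorticoid-responsive genes had the highest median at each month. The list was chosen with earlier results of these data known. It holds Igfbp1, which the study selected from these same arrays, so the rank of the list is no independent result. Of its 11 genes, 0, 3 and 3 were raised at 1, 2 and 4 months, beside 0.142%, 0.237% and 0.432% of all tested probes, and 0 were lowered, with 8, 10 and 11 genes above 0 and medians of 0.21, 0.41 and 0.62. Igfbp1, a secreted binder of insulin-like growth factors, was at -0.23, 1.97 and 2.74. Lcn2, an acute phase iron carrier, was at 0.36, 1.28 and 1.04, and Mt1, a metallothionein, at 0.45, 0.41 and 1.5. Cdkn1a, already named, is in this list too. Their part in the ratios of Jun and Dusp1 was not tested.

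Markers of other cells moved with some of the months. Of 14 pancreas acinar genes tested, 4 were raised at 4 months, beside 0.432% of all tested probes (Cela2a, Pnliprp1, Cpb1 and, named after its value was seen, Reg1), 13 were above 0 and all 14 were well above background in both pools. Their summed level, on a scale where the 75th percentile of the channel is 1, was 30.2 to 32.2 in the alcohol arrays and 23.5 to 24.8 in the control arrays. At 2 months their median was 0.02 and the sums were 21.7 to 24.5 and 23.0 to 23.1. At 1 month the red blood cell sum was 78.2 to 100.5 in alcohol and 23.3 to 36.8 in control with 2 of 7 genes raised (Hba-a1 and Hbb-b1), beside 0.142% of all tested probes, and the 8 endothelial genes were all above 0 with a median of 0.33. One of the 7, Alas2, was lowered at 4 months, beside 0.324% of all tested probes, where the red blood cell sum was 38.4 to 50.9 in alcohol and 28.9 to 34.7 in control. Of 10 macrophage genes 1 was raised at 1 month (Adgre1, at 1.23 ± 0.74), beside the same 0.142%. The 7 neutrophil, 8 stellate and 6 cholangiocyte genes had 0 called at any month. At these list sizes a count of 0 is near the share of all tested probes, at most 0.432% in either direction, and is no result about these cells. The part of these cells in the ratios of the immediate early genes was not tested.

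The genes most like Jun were sought by the root mean square distance of their 6 array ratios from those of A_51_P325914, among 27898 probes of other genes, the other immediate early genes included, that passed the background flag in every channel. The nearest was Tsku (Lrrc54 on the array), a secreted leucine-rich protein, at a distance of 0.37, with monthly means of 0.25, 1.37 and 1.62. Gadd45b followed at 0.48, then Ddit4, an inhibitor of mTOR signaling that stress and glucocorticoids induce, at 0.58 with means of 0.23, 1.00 and 1.15. Dusp1 was the fourth, at 0.61, and the other 4 nearest were outside the 10 immediate early genes. Fgf21, a hormone of the fasted liver, was at a distance of 0.62 with means of -0.17, 1.85 and 0.78. These genes were chosen for their likeness to Jun, and all of the ratios come from the same 6 pools. The ratios of Jun rest on a dim control pool at 2 and 4 months, and at 1 month neither of its pools was well above background. The order of the distances is therefore not exact.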

How the data were processed

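Liver RNA of 3 alcohol and 3 control pools was measured on 6 two-color arrays. The authors used Feature Extraction 9.1.1.1, and its deposited output gives both channel intensities of a spot, after background and dye correction, and their log10 ratio, Cy5 to Cy3. The deposited series table of log10 ratios matched these within 0.02 on the log2 scale for 100% of 40929 probes with 1 spot. Ratios were turned to alcohol over control by the labelled dyes, put on the log2 scale, and averaged over spots and over the dye pair. The number of arrays limits the precision. limma 3.58.1 in R 4.3.3 tested the 3 monthly ratios against 0 and their slope on log2 of the month over 37922 probes, with Benjamini-Hochberg adjustment, and was tested on simulated data. Nothing says that the pools were repeated, so p-values measure the spread between months. Genes of the related lists are named where 2-fold was reached, at most 3 genes a list by the largest mean, except that the other called early-response and pancreas acinar genes were added after their values were seen, and the 5 probes nearest to Jun are named. Levels are log2 intensities minus the 75th percentile of the channel. Alternatives were normexp (offset 50) with loess, the processed signals, the deposited table, centring, other filters and thresholds, each dye alone, and each month left out. A RefSeq accession was present for 25510 of 41174 probes, and 22951 were matched through it to a current symbol. Members and lists were chosen with earlier results of these data known. Promoters are from RefSeq (GRCm38.p6), and those of Ier2, Myc and Egr1 were not used here. Figures and counts were made in Python 3.11.15 (pandas 2.3.3, numpy 2.4.6, matplotlib 3.10.9).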

Additional observations from a re-analysis of the deposited data

Results flagged for a closer look

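For 3 probes both arrays of one month lay above 0 and both arrays of another below 0. The Jun probe A_51_P325914 was higher by 1.81 at 2 months and by 2.06 at 4 months than at 1 month, but neither pool was well above background at 1 month and the control pool was not at 2 or 4 months, so these values have no exact size. The Dusp1 probe A_51_P430900 was higher by 1.06 and 1.70 at 2 and 4 months than at 1 month. The Btg2 probe A_52_P31543 was higher by 0.63 at 4 months than at 1 month, but its alcohol pool was not well above background at 1 month, so this value has no exact size. These pairwise differences were not tested, and the limma adjusted p of the slopes over time was 0.627, 0.616 and 0.627. The arrays of 1 month lay on another slide, so slide and these differences cannot be told apart. Groups had too few arrays to look for single outlying values.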

How the results depend on the processing

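Of the probes called for the effect of alcohol over the months, 0 became 9 with normexp and loess and 6 with probes well above background in all channels. For the slope over time, 0 became 50 with normexp and loess (23 up and 27 down), Jun and Dusp1 among them, and 1 without moderation. Jun had met the filter for testing only through its alcohol pools. The mean effect of Jun ranged from 0.62 to 1.64 and that of Dusp1 from 0.097 to 0.95 with a month left out, and Jun was at 0.51 with normexp and loess, none of them called. The effect count was 0 with each month left out (1563 to 4334 probes at an unadjusted limma p below 0.05). The 2-fold calls over all tested probes were 90, 158 and 287 at 1, 2 and 4 months. Normexp and loess gave 61 at 2 months and 144 at 4 months, and the filter on all channels gave 64 and 113. In the same order, arrays with alcohol in Cy5 gave 184, 847 and 839 on their own, those with alcohol in Cy3 174, 937 and 1743, a 1.5-fold threshold 452, 929 and 1325, and 2-fold on each array 51, 66 and 150. The share raised moved by over 10 percentage points at 1 month for 1.5-fold (60.0% to 47.1%), at 2 months for normexp (57.0% to 67.2%) and Cy3 alone (44.7%), and at 4 months for Cy3 alone (57.1% to 70.1%). Some member values that no fit called changed sign. For the effect these were, with alcohol in Cy3 alone, A_51_P159194 of Junb (-0.038) and A_52_P278549 of Myc (0.076), and with Cy5 alone A_52_P554555 of Ier2 (0.65), A_51_P503162 of Klf6 (-0.037) and A_52_P925197 (-0.051) and A_52_P31543 (0.027) of Btg2. With a month left out, A_51_P159194 ranged from -0.027 (without 2 months) to 0.081 and A_52_P31543 from -0.31 to 0.00094 (without 1 month). For the slope they were A_51_P159194 of Junb with normexp (0.021) and Cy3 alone (0.045), A_51_P481325 of Ier2 with Cy3 alone (0.055) and on the month itself (0.017), A_51_P451346 of Klf6 with Cy3 alone (0.016), and with Cy5 alone A_52_P554555 of Ier2 (0.45), A_52_P278549 of Myc (-0.090) and A_52_P925197 of Btg2 (-0.017). The other 169 effect values and 137 slope values kept direction and side of the threshold. The cause of these changes was not tested. A fit with the slide as a random block could not be fitted. The effect test is itself paired by month, since each ratio sets an alcohol pool against the control pool of its month. A block on the replicate number was not used, because that number only marks the dye orientation of an array.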
